A study of Mus musculus with 8 samples.

Results

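The genes described here are 35 genes of DNA replication and the S phase of the cell cycle, taken by symbol from a fixed list and all found among the 22056 features of the count tables. They were followed in tumour cells of a mouse small cell lung cancer line grown at 3 sites. The rule uses gene symbols and no measured value, although the list was proposed with earlier results of these data known. All 35 genes passed the filter on low counts.

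The libraries came from allografts of N2N1G, 1 cell line of mouse small cell lung cancer, a neuroendocrine lung tumour, so every library had the same cell source. Brain allografts (2 libraries) and subcutaneous allografts (3 libraries) had been started by injection straight into the site, and liver allografts (3 libraries) by injection into the tail vein. The tumours were taken after 3 weeks, and sorted healthy single cells went into 10x Genomics 3' RNA libraries. The labels give no strain, age or sex of the host mice, no further genotype of the line and no treatment, and they do not say that each library came from its own mouse. Site and route of injection cannot be told apart in the comparisons with liver.

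DNA replication is prepared in G1, when the origin recognition complex, CDC6 and CDT1 load the MCM2 to MCM7 hexamer onto origins. In S phase CDC45 and the GINS complex turn that hexamer into the moving helicase, polymerase alpha with primase starts each strand, and the clamp PCNA, loaded by replication factor C, holds the later polymerases on the template. Most of these genes are classical targets of E2F transcription factors, which the retinoblastoma protein restrains, and loss of that protein is a hallmark of small cell lung cancer.

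Because E2F control is the textbook property of the list, the promoters were searched for 4 E2F-like words, TTTGGCGC, TTTCGCGC, TTTCCCGC and TTTGCCGC, on both strands, where words may overlap. RefSeq promoters of 300 bases (250 before and 50 after the gene start, GRCm38.p6) were present for 29 of the 35 genes. At least 1 word was found in 12 of these 29 genes (41.4%), which were Mcm3, Mcm5, Mcm6, Mcm7, Cdc6, Cdt1, Uhrf1, Dtl, Clspn, Pola1, Lig1 and Rfc3. The share over all 27025 genes with a promoter in the same table was 2.6%, and it was 34.9% in 43 other replication genes and 5.88% in 17 genes of G2 and mitosis. The following stretches of 60 bases hold such words and lie outside the gene as GENCODE draws it. They are shown because Mcm5 and Mcm6 carry 2 overlapping words of opposite strand, a palindrome-like arrangement, while Dtl and Pola1 carry a single word. A further word of Mcm6, TTTGGCGC, starts 47 bases before the gene start and lies outside its stretch. Each stretch is written 5′ to 3′ on the strand of the gene, with the words in capitals. The Mcm5 stretch is chr8:75109336-75109395 (plus strand), Mcm6 is chr1:128359776-128359835 (minus strand), Dtl is chr1:191575545-191575604 (minus strand) and Pola1 is chrX:93632254-93632313 (minus strand).
Mcm5: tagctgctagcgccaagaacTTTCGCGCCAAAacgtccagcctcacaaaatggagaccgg
Mcm6: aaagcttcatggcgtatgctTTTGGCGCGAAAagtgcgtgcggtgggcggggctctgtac
Dtl: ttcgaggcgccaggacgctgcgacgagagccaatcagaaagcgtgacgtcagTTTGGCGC
Pola1: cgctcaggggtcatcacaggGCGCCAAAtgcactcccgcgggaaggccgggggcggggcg

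The windows drawn in the same way for Cdc6, Mcm7, Rfc3 and Uhrf1 overlap the annotated gene and are not shown. The word of Clspn starts 22 bases after the RefSeq start. The CCAAT box, searched on both strands, was in 65.5% of the 29 genes, in 41.1% of all genes and in 88.2% of the 17 G2 and mitosis genes. The word TTTGAA of the cell cycle homology region, an element of late cell cycle promoters, was in 3 of the 29 genes (Mcm2, Cdc45 and Fen1, 10.3%), in 20.2% of all genes and in 70.6% of the G2 and mitosis genes. A match is a string of letters in a window and was not tested as a binding site.

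**Figure D1:**
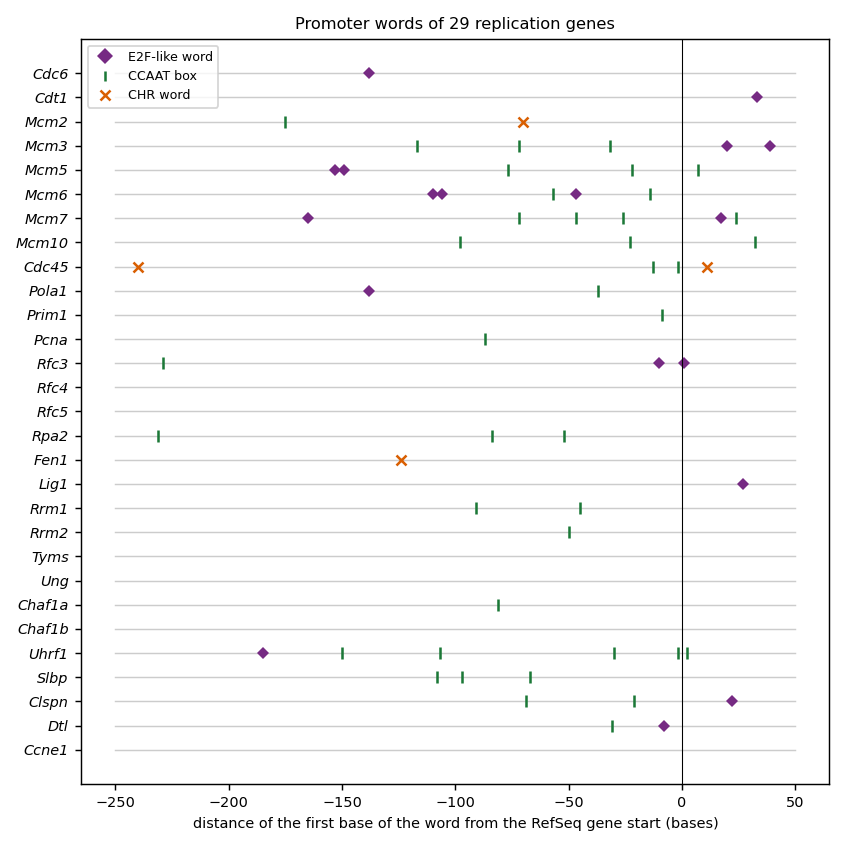
Places of the E2F-like words (diamonds), CCAAT boxes (bars) and TTTGAA words (crosses) in the promoters of 29 replication genes; the horizontal axis is the distance of the first base of the word from the RefSeq gene start in bases. E2F-like words are seen in 12 genes and TTTGAA words in 3.

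Of 38460 cells in the tables, 36797 passed the filters on genes and mitochondrial counts, and 34719 of these were tumour cells by the gate (eGFP and Mycl UMIs at least 0.2% of a cell's UMIs, where a UMI is a unique molecular identifier and stands for 1 captured RNA molecule). Each library held 2418 to 6276 tumour cells and 21689091 to 62047017 tumour UMIs. The reporter of the line, eGFP, was detected in 99.4% to 99.8% of these cells, which the gate on eGFP and Mycl itself favours. The neuroendocrine genes Chga, Insm1, Calca and Ncam1 were present in the tumour cells of every library. The 13 myeloid markers summed to 78.6 and 505 CPM (summed UMIs scaled to a common total) in the brain sums, 5.96 to 15 in liver and 2.11 to 43.1 in subcutaneous tissue, so myeloid RNA was highest in the brain libraries. The 4 erythroid markers summed to 849 CPM in the second liver library and to at most 11.3 CPM in each other library, and their part in the results was not tested. Oligodendrocyte markers summed to 150 to 216 CPM in brain and 37.2 to 48.2 elsewhere, and 2 of the 4 T or NK cell markers in the tables were at 0 in all libraries. Between 20 and 56 cell barcodes were shared by any 2 libraries. The levels below are UMIs summed over the tumour cells of a library, in CPM after TMM scaling. They count 3' ends, are not divided by length, and are compared between libraries and not between genes. In such sums, fewer cells that express a gene and less RNA per cell cannot be told apart.

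Within the list, 5 genes passed the test in at least 1 of the 3 contrasts between sites (edgeR, quasi-likelihood test, Benjamini-Hochberg adjusted p under 0.05 over all 13931 tested genes). Mcm5 and Clspn were higher in brain than at either other site, Pcna was higher in brain than in liver, and Cdc6 and Ccne2 were lower in liver than in subcutaneous tumours. The other 30 genes passed in none of the 3 contrasts. Brain against liver therefore had 3 genes higher (8.57%) and 0 lower, beside 13.2% higher and 8.56% lower among all tested genes. Brain against subcutaneous had 2 higher (5.71%) and 0 lower, beside 8.94% and 6.13%. Liver against subcutaneous had 0 higher and 2 lower (5.71%), beside 0.933% and 1.9%. The counts of replication genes in the brain contrasts were thus below or near the background. At an unadjusted p under 0.05 the numbers were 8, 8 and 3 genes. The share of all tested genes at that limit is not given, so these numbers are not read as particular to the list. The median log2 fold change of the 35 genes was 0.16 for brain against liver, 0.10 for brain against subcutaneous and -0.05 for liver against subcutaneous, where the medians of all genes lay between -0.01 and 0.00. The contrasts share libraries, so they are not independent of each other.

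A pair of libraries stood apart within their own sites. The third liver library was the highest of the 3 liver libraries for 31 of the 35 genes, whereas it was the highest for 34.3% of all tested genes. The first subcutaneous library was the lowest of its 3 for 26 of the 35 genes, against 42.6% of all tested genes. Over all 8 libraries the third liver library had the highest level of 14 genes, the second brain library that of 13, and the first liver library had the lowest level of 17. The shares of all tested genes are not given for these extremes, so they are not read as particular to the list. The highest level of a gene over its lowest was 1.15-fold (Chaf1a) to 2.94-fold (Mcm5), with a median of 1.52-fold. Results that rest on the third liver library or on other single libraries are given with and without them.

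**Figure D2:**
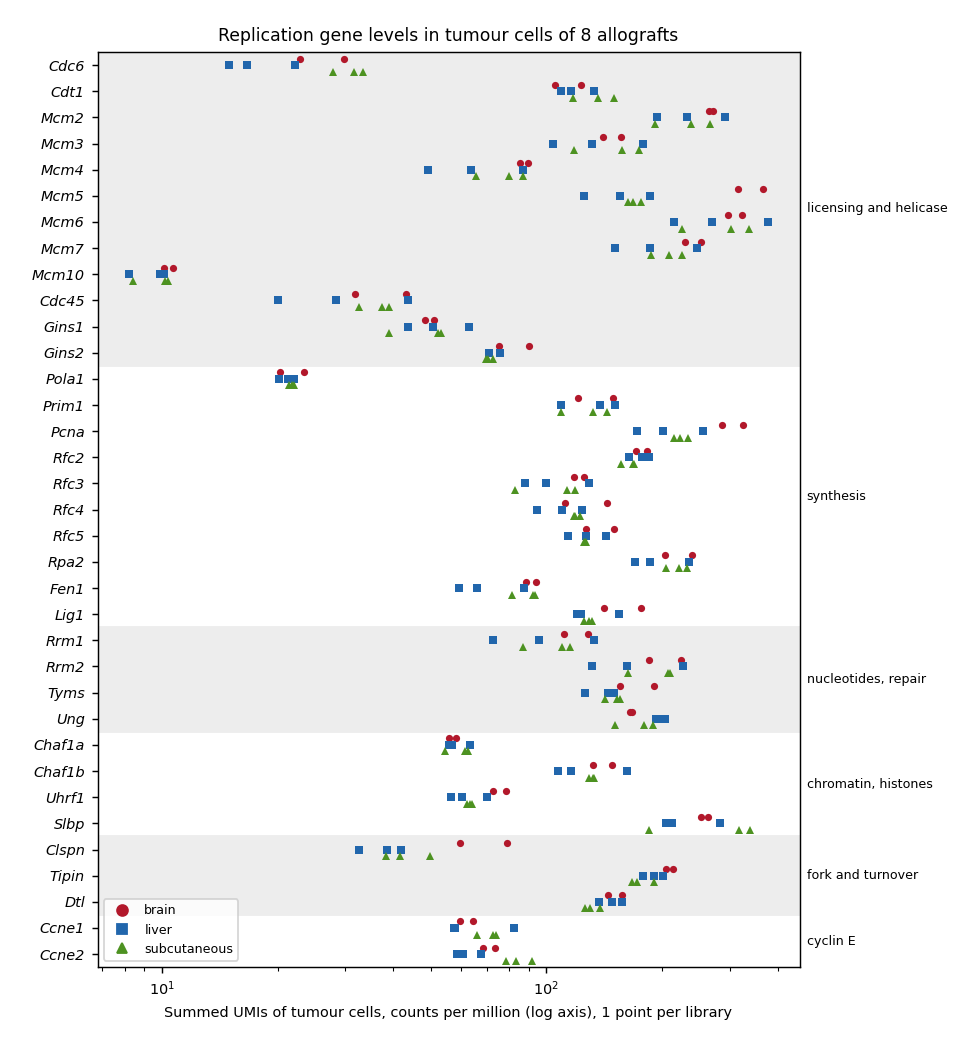
Level of each of the 35 genes in the tumour cells of each library, in CPM on a log axis, 1 point per library, ordered by the role of the gene. Mcm5, Clspn, Pcna, Tyms, Uhrf1 and Tipin have both brain points to the right of all others, for Tyms by a narrow margin. The share of all tested genes that separate in this way is not given, so this is not read as particular to the list. Most of the other genes overlap between sites.

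Mcm5 encodes a subunit of the replicative helicase and lies at chr8:75109569-75128439 (GRCm38, plus strand). Its level was 314 and 366 CPM in the brain libraries, 125, 155 and 186 CPM in the liver libraries, and 176, 168 and 163 CPM in the subcutaneous libraries. Both brain values were above all 6 others, with no overlap. The log2 fold change of brain against liver was 1.13 ± 0.15 (SE, 2.19-fold, edgeR adjusted p = 0.00208), and that of brain against subcutaneous was 1.01 ± 0.15 (2.01-fold, adjusted p = 0.00509). Against liver the call held whichever library was left out. Against subcutaneous the log2 fold change was 0.89 with an adjusted p of 0.0528 without the second brain library, and the call held without each other one. UMIs of Mcm5 were found in 50.1% to 56.5% of brain tumour cells, 29.6% to 39.8% of liver tumour cells and 36.6% to 38.3% of subcutaneous tumour cells after each cell was thinned to 3000 UMIs.

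The 5 hexamer partners of Mcm5 did not pass the test in any contrast between sites. Mcm6 was at 296 and 322 CPM in brain, 215, 270 and 376 in liver, and 225, 337 and 302 subcutaneously. Mcm2 was at 265 and 271 CPM in brain, 194, 232 and 292 in liver, and 192, 266 and 238 subcutaneously. Mcm7 was at 229 and 252 CPM in brain, 151, 186 and 247 in liver, and 187, 225 and 208 subcutaneously. For Mcm2 and Mcm6 the third liver library was above both brain libraries and for Mcm7 it lay between them, so brain and liver overlapped in all 3 genes. Their log2 fold changes for brain against liver were 0.11 ± 0.23 (Mcm6), 0.16 ± 0.18 (Mcm2) and 0.31 ± 0.18 (Mcm7), and those of Mcm3 and Mcm4 were 0.10 ± 0.22 and 0.40 ± 0.21. Without the third liver library, Mcm4 and Mcm7 passed the test in this contrast, together with Mcm5, Clspn, Pcna, Cdc6, Fen1 and Uhrf1, which makes 8 genes in place of 3 (22.9%, beside 10.4% of all genes higher in that fit).

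Cdc6 and Cdt1 encode the loading factors of the hexamer. Cdc6 (chr11:98907801-98923940, plus strand) was at 22.9 and 29.8 CPM in brain, 14.9, 16.6 and 22.2 in liver, and 27.9, 33.4 and 31.5 subcutaneously. All 3 liver values were below all others, and brain overlapped with subcutaneous tissue. Liver against subcutaneous gave a log2 fold change of -0.79 ± 0.16 (edgeR adjusted p = 0.0417). That call was lost without either brain library, without the first or second liver library and without the second or the third subcutaneous library, with adjusted p values up to 0.22. It was also lost with a gate at 0.5%, in G2/M-low cells (few UMIs of 20 G2/M genes) and with only the 2 sites in the fit, and held in 11 of the 14 settings that kept all libraries. Brain against liver was 0.56 ± 0.18 with an adjusted p of 0.0551. Cdt1 ranged from 105 to 150 CPM over the 8 libraries and passed in no contrast. The helicase activators Mcm10, Cdc45, Gins1 and Gins2 had log2 fold changes between -0.25 and 0.29 in the 3 contrasts and passed in none.

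Pcna (chr2:132249162-132253314, minus strand), the sliding clamp, was at 324 and 287 CPM in brain, 172, 201 and 255 in liver, and 215, 234 and 222 subcutaneously. Both brain values were above all 6 others. Brain against liver was 0.55 ± 0.15 on the log2 scale (1.46-fold, edgeR adjusted p = 0.031), and brain against subcutaneous was 0.45 ± 0.15 with an adjusted p of 0.0749. The liver call was lost in 5 of the 8 fits that left out 1 library, each time for either brain library, the first or second liver library or the third subcutaneous library, with an adjusted p of up to 0.2. Rpa2, a subunit of the single-strand binding protein, was at 203 and 239 CPM in brain, 170, 186 and 235 in liver, and 205, 232 and 221 subcutaneously, and the 3 sites overlapped. Of the other synthesis genes, none passed in any contrast. These were the clamp loader subunits Rfc2 to Rfc5, Pola1 (polymerase alpha), Prim1 (primase), the flap nuclease Fen1 and the ligase Lig1. Pola1 was among the steadiest genes, at 20.1 to 23.4 CPM.

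Of the genes of nucleotide supply, none passed between sites. Rrm2, the regulated subunit of ribonucleotide reductase, was at 185 and 224 CPM in brain, 131, 162 and 227 in liver, and 163, 210 and 207 subcutaneously, with overlap of all sites. Its log2 fold change was 0.24 ± 0.21 for brain against liver. Rrm1, Tyms (thymidylate synthase) and Ung (the uracil glycosylase that removes uracil from DNA) passed in no contrast. Ung was the gene of the list whose liver libraries were all above both brain libraries, at 193, 202 and 204 CPM against 165 and 167 CPM, with an edgeR adjusted p of 0.109.

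Among the genes that pass replication on to chromatin, Slbp, whose protein binds the stem-loop of histone mRNA, was at 252 and 263 CPM in brain, 205, 212 and 282 in liver, and 185, 339 and 316 subcutaneously. Its subcutaneous libraries thus lay on both sides of all the others. Liver against subcutaneous was -0.27 ± 0.21 on the log2 scale, and Slbp passed only in the fit without the first subcutaneous library. The chromatin assembly genes Chaf1a and Chaf1b and the maintenance methylation factor Uhrf1 passed in none of the 3 contrasts.

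Clspn encodes claspin, the mediator that carries the signal of a stalled fork to the checkpoint kinase CHK1, and lies at chr4:126556935-126593903 (plus strand). Its level was 59.5 and 79.1 CPM in brain, 38.5, 32.6 and 41.9 in liver, and 49.9, 38.2 and 41.5 subcutaneously, so both brain values were above all 6 others. Brain against liver was 0.88 ± 0.16 on the log2 scale (1.84-fold, edgeR adjusted p = 0.00725) and brain against subcutaneous was 0.68 ± 0.16 (1.61-fold, adjusted p = 0.0262). Without the second brain library both calls were lost (adjusted p = 0.062 against liver and 0.178 against subcutaneous), and the subcutaneous call was also lost without the second or the third subcutaneous library. With only the 2 sites in the fit its adjusted p was 0.069. The other fork gene with printed values, Tipin, was at 214 and 205 CPM in brain, 201, 178 and 191 in liver, and 190, 172 and 167 subcutaneously. Both brain values of Tipin were above all others, and neither contrast passed (brain against subcutaneous 0.25 ± 0.094, adjusted p = 0.108). Dtl, the adaptor of the ligase that destroys CDT1 in S phase, passed in none.

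Of the cyclin E genes, which drive entry into S phase with CDK2, Ccne2 (chr4:11191351-11204779, plus strand) was at 68.3 and 73.5 CPM in brain, 60.5, 58.5 and 67.7 in liver, and 78.6, 91.9 and 83.1 subcutaneously. The 3 sites did not overlap, with liver lowest and subcutaneous tissue highest. Liver against subcutaneous was -0.44 ± 0.096 on the log2 scale (edgeR adjusted p = 0.0457), and this call was lost when the same 6 libraries as for Cdc6 were left out in turn (adjusted p up to 0.251). Of the 14 settings that kept all libraries, 7 held the call. It was lost with RLE factors, thinned counts, equal cell numbers, a gate at 0.5% and G2/M-low cells alone. It was also lost with the replicate number as a block and with only the 2 sites in the fit (adjusted p up to 0.193 over these settings). Ccne1 ranged from 57.6 to 82.2 CPM and passed in no contrast.

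**Figure D3:**
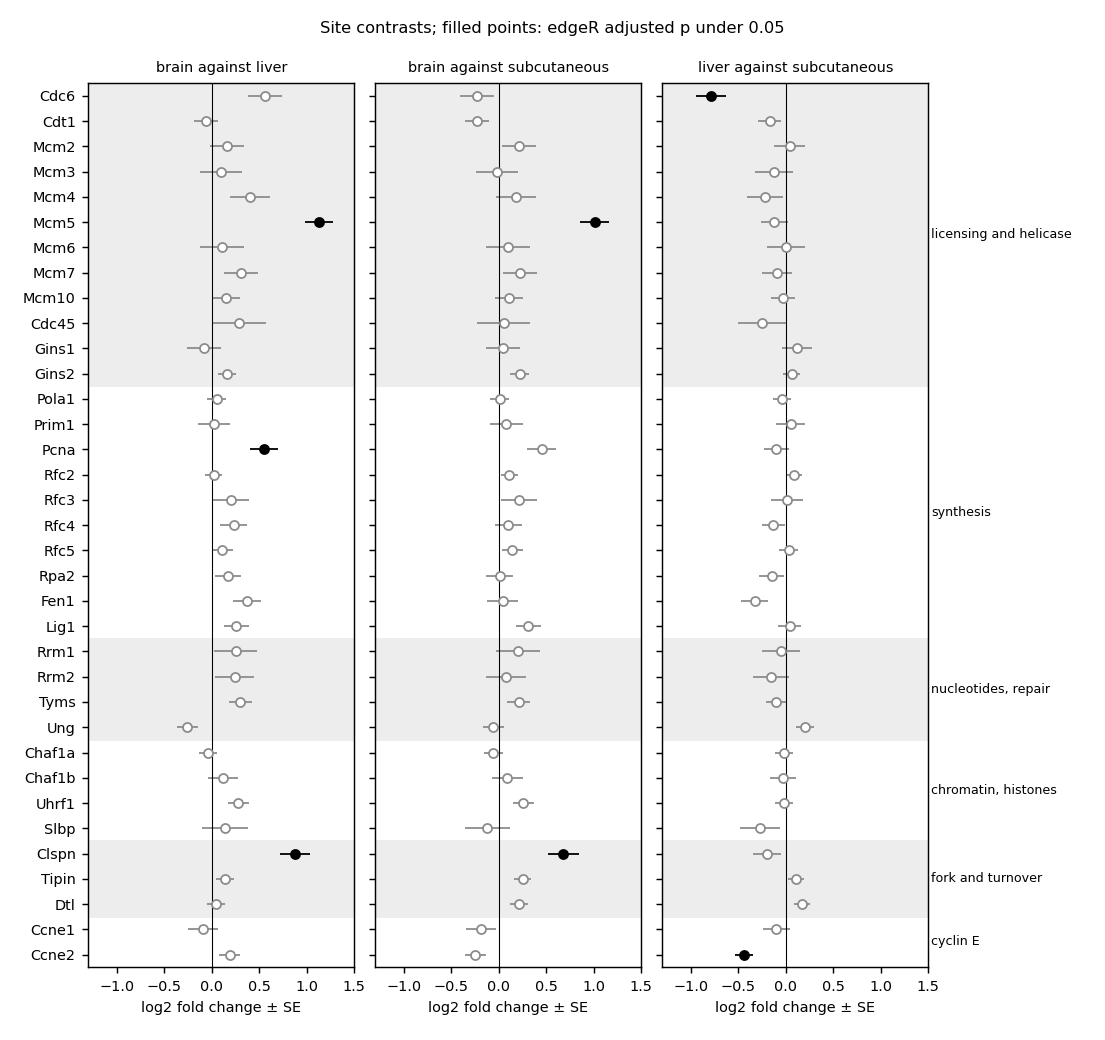
Log2 fold change with its SE of each replication gene in the 3 contrasts between sites; filled points passed the edgeR test at an adjusted p under 0.05. Filled points are Mcm5, Clspn and Pcna in brain against liver, Mcm5 and Clspn in brain against subcutaneous, and Cdc6 and Ccne2 in liver against subcutaneous.

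Since myeloid RNA was highest in the brain libraries, the genes were also measured in host cells. Host myeloid cells (eGFP and Mycl UMIs under 0.05%, with at least 10 myeloid UMIs) numbered 695 and 220 in the brain libraries, with median UMIs of 4562 and 4306.5 against 7971.5 and 8409 in brain tumour cells. After thinning, Mcm5 UMIs were found in 5.84% of host cells of the first brain library and in 50.1% of its tumour cells, and Clspn UMIs in 0.604% and 12.6%. All 35 genes had a higher CPM in tumour cells than in these host cells in that library, by 2.22-fold to 31.1-fold with a median of 8.68-fold. The share of cells with a UMI was higher in tumour cells in both brain libraries for 34 of the 35 genes. The exception, Mcm10, was found in 2.63% of host cells and 2.32% of tumour cells of the second brain library. In that library 0 of 152 host cells had a UMI of Chaf1a. In the first brain library 652 of the 2418 tumour cells had at least 3 myeloid UMIs. The number was 59 of 4060 in the second brain library and 0 to 16 in each other library. Without cells in the top 4% of UMIs or with at least 3 myeloid UMIs, 1748 tumour cells of the first brain library were left. The 5 genes then kept their calls and Cdc6 passed for brain against liver as well.

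Genes near the 5 called members were counted too, a step added after the data had been seen. Within 1 Mb of Mcm5, 3 of 5 tested genes were also higher in brain than in liver (Hmgxb4, Tom1 and Hmox1), and 2 of 5 were higher in brain than in subcutaneous tumours. Within 1 Mb of Clspn the numbers were 11 of 29 and 10 of 29, and the 11 included Csf3r, which is on the list of neutrophil markers. The median log2 fold change of the neighbours against liver and against subcutaneous was 0.70 and 0.21 for Mcm5 and 0.32 and 0.35 for Clspn. It was -0.09 for the neighbours of Pcna against liver. Of all tested genes 13.2% were higher in brain than in liver and 8.94% higher in brain than in subcutaneous tumours. For Pcna it was 3 of 15, for Cdc6 and Ccne2 it was 0 of 29 and 0 of 16 genes with the same direction, beside 1.9% of all genes lower in liver than in subcutaneous tumours. What these neighbourhoods share was not tested, nor was the part of host RNA in these counts.

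Per cell, the 35 genes were summed after each tumour cell had been thinned to 3000 UMIs (48 to 180 cells of each library were shallower and dropped out). The cells that held 10 or more UMIs of the list made up 71.2% and 76.7% of the brain tumour cells, 50.7%, 55.6% and 71% of the liver tumour cells, and 59%, 66% and 67.3% of the subcutaneous tumour cells. The means were 74% ± 3.89 (SD, n = 2), 59.1% ± 10.6 (n = 3) and 64.1% ± 4.46 (n = 3). Both brain libraries were above all others, and the lower of them exceeded the third liver library by less than the spread of either site. The mean number of UMIs over the list was 15.3 ± 0.849 per brain cell, 12.1 ± 1.95 per liver cell and 13.4 ± 1.07 per subcutaneous cell. In host myeloid cells 1.81% and 1.97% reached 10 UMIs. Without thinning the shares were 92.7%, 92.9% and 93.2%, where nearly all cells passed the limit at every site.

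Cells of each library were ranked by the UMIs of the other 34 genes and split into 4 equal parts, and the level of the gene left out was compared between the highest and the lowest of these, as a description. The median ratio over the 8 libraries was 12.4 for Cdc6, 8.34 for Clspn, 7.51 for Ccne1 and 5.39 for Ccne2. It was 3.29 for Pcna and 3.11 for Mcm5. The lowest ratios were 1.9 for Rfc5, 1.89 for Mcm7 and 1.67 for Gins1. This order belongs to the ratio alone. The correlation of a gene with the other 34 over cells ranged between libraries from 0.30 to 0.43 for Slbp, 0.28 to 0.38 for Pcna and 0.18 to 0.31 for Cdc6.

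Replication genes are known to peak at the G1/S border or in S phase. Their levels were therefore compared between tumour cells with many and few transcripts of 20 other genes that act in G2 and mitosis. Cells with 8 or more such UMIs after thinning are called G2/M-high and cells with 0 or 1 G2/M-low. These are ranges of a score and not cell types, and 98 to 266 cells per library had 7 or 8 UMIs, next to the limit. G2/M-high cells made up 23.8% and 25.5% of brain tumour cells, 20.8% to 26.1% of liver tumour cells and 20.1% to 24.7% of subcutaneous tumour cells. They held more RNA, with median UMIs of 10513 to 12032 per library against 7456.5 to 10264 in G2/M-low cells. The part of this difference in depth in the results was not tested.

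In G2/M-high cells 12 of the 35 genes were higher (34.3%), 13 were lower (37.1%) and 10 did not pass (edgeR on sums per library and class with the library as a block). Of all 11853 genes tested, 29.2% were higher and 35.1% lower, so both shares were near the background at this limit. With a limit of 12 UMIs for the high class, 11 genes were higher (31.4%, beside 28.6% of all genes) and 23 lower (65.7%, beside 34%). Leaving out the second subcutaneous library gave 12 higher (34.3%, beside 27.7%) and 19 lower (54.3%, beside 33.4%).

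The loading and helicase genes were mostly lower. Mcm2 fell from 225 to 367 CPM (median 321) in G2/M-low cells to 108 to 160 CPM (median 133) in G2/M-high cells, with no overlap between the classes over the 8 libraries. Levels in the classes are CPM of the UMIs of that class. The log2 fold change was -1.22 ± 0.044 (edgeR adjusted p = 1.30e-10). Mcm4, Mcm3, Mcm6 and Mcm5 fell by 0.94, 0.90, 0.85 and 0.79 on the log2 scale, Mcm7 by 0.26 and Cdt1 by 0.36, and Mcm7 was lower in 7 of the 8 libraries. The GINS subunit Gins2 fell by 0.81, while its partner Gins1 was slightly higher (0.13 ± 0.035). Mcm10 and Cdc45 went the other way. Mcm10 rose from 3.17 to 5.81 CPM (median 4.82) to 14.1 to 19.4 CPM (median 16.7), a log2 fold change of 1.87 ± 0.095 and higher in all 8 libraries. Cdc45 rose by 1.04 ± 0.048.

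Both subunits of ribonucleotide reductase rose. Rrm2 went from 71.7 to 128 CPM (median 101) in G2/M-low cells to 201 to 451 CPM (median 347) in G2/M-high cells, a log2 fold change of 1.70 ± 0.075 (edgeR adjusted p = 2.40e-07), and Rrm1 rose by 0.67 ± 0.035. Thymidylate synthase (Tyms) rose by 0.48 ± 0.04. Ung had the largest fall of the list, from 224 to 288 CPM (median 250) to 40.5 to 72.7 CPM (median 55.3), a log2 fold change of -2.22 ± 0.08 (adjusted p = 5.11e-08). The 2 classes did not overlap in any of these library ranges of Rrm2 and Ung.

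The clamp and its loader split as well. Pcna fell by 0.56 ± 0.032, whereas Rfc5 rose by 1.02 ± 0.046 and Rfc4 by 0.47 ± 0.05. Rfc2 fell by 0.11 ± 0.028 and Rfc3 did not pass. Fen1 rose by 0.61 ± 0.048. Of the other genes, Clspn rose by 1.31 ± 0.088, from a median of 24.8 to 68.6 CPM, and was higher in all 8 libraries by 2.1-fold to 3.7-fold. Uhrf1 rose by 0.39 ± 0.04 and Chaf1a by 0.17 ± 0.044, while its partner Chaf1b fell by 0.48 ± 0.026 and Ccne1 by 0.65 ± 0.082. Cdc6, Slbp, Dtl, Pola1, Prim1, Lig1, Tipin, Ccne2 and Rpa2 did not pass either, with log2 fold changes between -0.17 and -0.02. Of the 12 genes with an E2F-like word, 5 fell, 2 rose and 5 did not pass. Of the 17 genes whose promoter holds none, 5 fell and 9 rose.

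**Figure D4:**
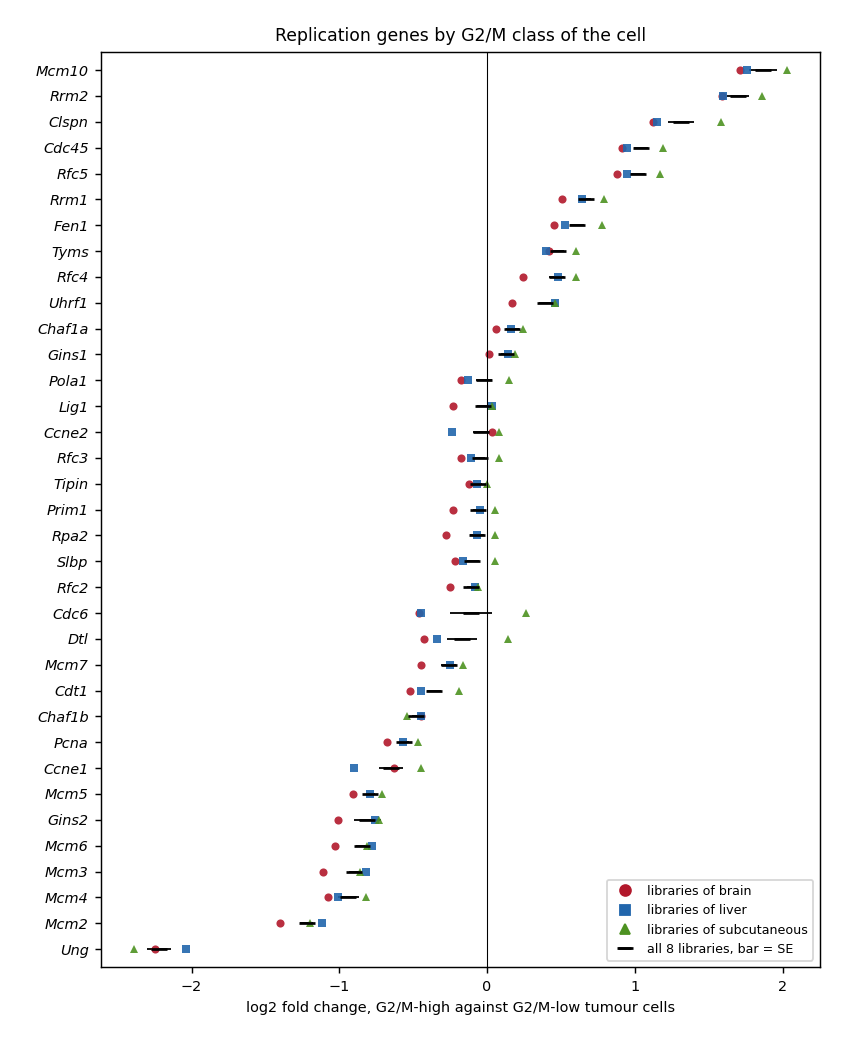
Log2 fold change of each replication gene between G2/M-high and G2/M-low tumour cells; the black mark and bar are the estimate over all 8 libraries with its SE, and coloured points are the estimates within each site. Mcm10 and Rrm2 are highest, Ung is lowest, and for most genes the subcutaneous point lies to the right of the brain point.

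The size of this class difference was then compared between sites, a test added after the data had been seen. Between brain and subcutaneous tumours it was lower in brain for 19 of the 35 genes (54.3%) and higher for 0, beside 1.6% lower among all tested genes. Between brain and liver it was lower in brain for 7 genes (20%, beside 1.38%) and between liver and subcutaneous lower in liver for 8 genes (22.9%, beside 0.793%). Of 56 other replication genes, 12 (21.4%), 3 (5.36%) and 6 (10.7%) were lower in these 3 contrasts, and of the 20 G2/M genes that define the classes, 2 (10%), 1 (5%) and 9 (45%) were lower, while 3 (15%) were higher for brain against liver. Their part in the differences of the list was not tested. Cdc6 showed the largest difference. It was lower in G2/M-high cells within brain (-0.46 ± 0.11) and within liver (-0.45 ± 0.091) and higher within subcutaneous tumours (0.26 ± 0.066). Brain against subcutaneous differed by -0.72 ± 0.13 (edgeR adjusted p = 3.03e-04) and liver against subcutaneous by -0.71 ± 0.11 (adjusted p = 2.89e-04). Dtl followed the same order, at -0.43 ± 0.073 within brain, -0.34 ± 0.056 within liver and 0.14 ± 0.054 within subcutaneous tumours. Clspn rose within every site, by 1.12 ± 0.073 in brain, 1.15 ± 0.066 in liver and 1.58 ± 0.059 subcutaneously. Per library, Cdc6 differed by -0.70 and -0.37 in brain, by -0.57 to -0.15 in liver and by 0.11 to 0.46 in subcutaneous tumours, so that the subcutaneous libraries did not overlap with the others.

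These counts changed when single libraries were left out. The share of all tested genes called in those fits is not given. A loss of calls over all genes therefore cannot be told apart from a loss in the list. The brain against subcutaneous count of 19 was 6 without the first brain library, 7 without the second and 9 without the second subcutaneous library. The brain against liver count of 7 fell to 1 and 0 without the first and second brain library, to 2 without the first or second liver library, and was 11 without the first subcutaneous library, of which 10 were lower. The liver against subcutaneous count of 8 was 4 without the first liver library, 3 without the third one, 4 without the second subcutaneous library and 14 without the first. G2/M-high cells held 17.3 and 18.4 UMIs of the 20 genes on average in the brain libraries, 14.1, 15.1 and 15.7 in liver, and 16.2, 15.5 and 16.9 subcutaneously. This score was therefore highest in the brain libraries, and its part in the differences between sites was not tested.

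**Figure D5:**
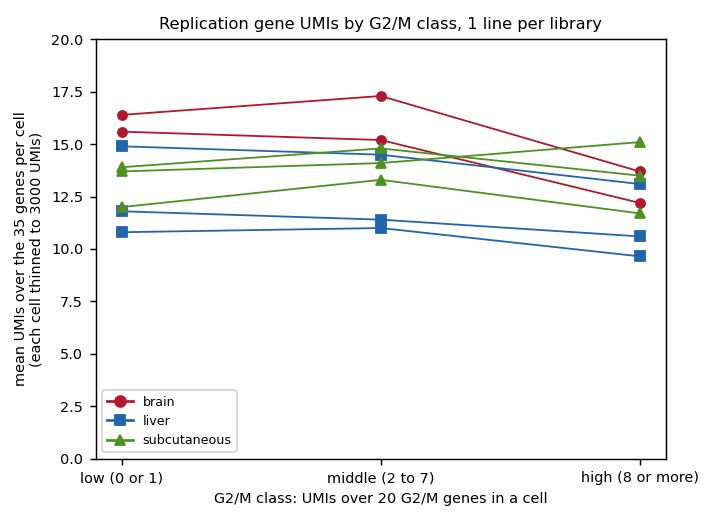
Mean UMIs summed over the 35 genes per tumour cell, thinned to 3000 UMIs, in cells with 0 or 1, 2 to 7, and 8 or more UMIs of the G2/M genes, with 1 line per library. Both brain lines are above the others in the low class and fall to 12.2 and 13.7 UMIs in the high class.

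Summed over the list, brain cells held 16 ± 0.566 UMIs in the G2/M-low class, 16.2 ± 1.48 in the middle class and 12.9 ± 1.06 in the G2/M-high class (SD, n = 2). Liver cells held 12.5 ± 2.14, 12.3 ± 1.92 and 11.1 ± 1.78, and subcutaneous cells 13.2 ± 1.04, 14.1 ± 0.751 and 13.4 ± 1.7 (n = 3 each). In the G2/M-high class the 3 sites overlapped. In the G2/M-low class, both brain libraries were above all others. When only G2/M-low cells entered the contrasts between sites, Mcm5, Clspn, Pcna and Uhrf1 passed as higher in brain than in liver, and Mcm5, Clspn, Pcna, Uhrf1 and Dtl as higher in brain than in subcutaneous tumours. These are 11.4% and 14.3% of the list, beside 13% and 9.65% of all genes tested in these cells. Liver against subcutaneous then had 0 calls. At an unadjusted p under 0.05 there were 3 genes, a number for which the share of all genes is not given.

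Other genes of replication were read from a list of 56 that holds none of the 35. In each brain contrast 7 of the 56 were higher in brain and 0 were lower (12.5%, beside 13.2% and 8.94% of all genes). Against liver they included Orc6, an origin recognition subunit (212 ± 17.4 CPM in brain, 114 ± 12 in liver), Wdhd1, which links the helicase to polymerase alpha (35 ± 3.1 and 19 ± 2.3 CPM), and Asf1b, a histone chaperone (107 ± 22.3 and 51.5 ± 8.79 CPM). Their log2 fold changes were 0.90 ± 0.11, 0.88 ± 0.13 and 1.05 ± 0.18. Against subcutaneous tumours Wdhd1, Orc6 and Rnaseh2a, a subunit of the nuclease that removes ribonucleotides from DNA, differed by 0.93, 0.68 and 0.70. Liver against subcutaneous had 0 calls by edgeR. At an unadjusted p under 0.05 there were 6 genes, a number for which the share of all genes is not given. In G2/M-high cells 28 of the 56 rose (50%, beside 29.2%) and 15 fell (26.8%, beside 35.1%), with Tk1 (thymidine kinase) up by 1.70, Gmnn (geminin, the inhibitor of CDT1) by 0.64 and Dbf4 (the activator of the CDC7 kinase) by 2.34 on the log2 scale.

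Among 29 E2F, retinoblastoma family and cyclin-dependent kinase genes, 3 were higher (10.3%, beside 13.2% of all genes) and 1 was lower (3.45%, beside 8.56%) in brain than in liver. Cdkn2c, an inhibitor of CDK4 and CDK6, was at 200 ± 15 CPM in brain, 88.6 ± 1.86 in liver and 102 ± 19.8 subcutaneously, which is 1.17 ± 0.14 on the log2 scale against liver and 0.97 ± 0.14 against subcutaneous (edgeR adjusted p = 0.00146 and 0.00456). Rbl2, the retinoblastoma relative p130, was at 7.5 ± 0.421 CPM in brain and 4.04 ± 0.408 in liver, and E2f2 at 75.3 ± 0.114 and 52.7 ± 4.66 CPM. The lower gene, E2f5, differed by -0.49 ± 0.13 and was named after its value was seen. Brain against subcutaneous had 2 higher and 2 lower (6.9% each, beside 8.94% and 6.13%). The other higher gene, Ccnd1 (cyclin D1), differed by 2.41 ± 0.69 (adjusted p = 0.0467) and was likewise named after its value was seen. The lower genes were E2f5 (-0.53 ± 0.12) and Cdc25a, the phosphatase that activates CDK2 (-0.36 ± 0.10). Levels in host myeloid cells are given for the 35 genes alone. The part of myeloid RNA in the brain contrasts of this list and the other lists was not tested. Liver against subcutaneous had 0 higher and 2 lower (6.9%, beside 1.9%), the inhibitor genes Cdkn1a (83.7 ± 16 against 155 ± 23.7 CPM, -0.89 ± 0.15) and Cdkn1c (69.9 ± 15.7 against 131 ± 31.1 CPM, -0.91 ± 0.19). In G2/M-high cells 17 of the 27 tested rose (63%, beside 29.2%) and 7 fell (25.9%, beside 35.1%). Cks1b and Cdkn1b rose by 1.89 and 0.76, and E2f1 fell by 0.81 on the log2 scale.

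Of 67 histone genes in the replication-dependent clusters, 58 were tested, and in each brain contrast 1 was higher (1.72%) and 8 were lower in brain (13.8%), where 13.2% and 8.56% of all genes were higher and lower against liver, and 8.94% and 6.13% against subcutaneous. Called or not, 36 of the 58 genes had a positive log2 fold change in brain relative to subcutaneous tumours, with a median of 0.21. Relative to liver, 26 of the 58 were positive, with a median of -0.04. The 8 genes called lower therefore do not give the direction of most histone genes relative to subcutaneous tumours. The genes called higher, Hist2h2ac against liver and Hist1h3a against subcutaneous, were named after their values were seen. Hist3h2ba was at 303 ± 5.87 CPM in brain and 493 ± 65.5 in liver, and Hist1h2bc at 78.4 ± 9.24 CPM in brain and 141 ± 12 in subcutaneous tumours. In G2/M-high cells 45 of the 46 histone genes tested rose, all but Hist1h4h (97.8%, beside 29.2% of all genes), with Hist1h2af up by 4.23 on the log2 scale. Many of these genes are near-identical copies and their main mRNAs end in a stem-loop without a poly(A) tail, so the counts of single histone genes in poly(A) libraries are uncertain.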

How the data were processed

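The authors deposited 1 matrix of whole-number UMI counts per sample, written by Cell Ranger 3.0.0 per the file headers. The submitters' processing notes name Cell Ranger, STAR and mm10. The annotation and counting settings are not given in the sources used here. No deposited cell had under 501 UMIs. The 35 members, the gene lists, the tests and the alternatives were chosen with earlier results of these data known.

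The filters asked for 500 detected genes and no more than 10% mitochondrial UMIs in a cell, and tumour cells were those with eGFP and Mycl UMIs at or above 0.2% (28 to 86 cells per library would be added by 0.1%). No doublet caller was run; an alternative dropped cells in the top 4% of UMIs or with at least 3 myeloid UMIs. UMI counts were summed over tumour cells per library and tested with edgeR 4.0.16 in R 4.3.3 (TMM, filterByExpr, robust quasi-likelihood F test, Benjamini-Hochberg adjustment) in 1 model with a mean per site (5 residual degrees of freedom; 17.9% biological variation). The 13931 tested genes left out 0.0133% of the UMIs. An SE was taken as the log2 fold change over the square root of F. The G2/M classes were tested with the library as a block (11853 genes, 7 residual degrees of freedom), and their difference between sites with a class effect per site (5 residual degrees of freedom). Thinning drew UMIs without replacement with a fixed seed in Python 3.11.15. Since the labels do not say that libraries came from separate mice, p-values of the contrasts between sites measure the spread between these libraries. With the library as a block, those of the class tests measure how the class difference varied between these libraries. Intervals on single shares are not given, and an SD covers the spread between libraries.

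Values of every library are printed for genes past the threshold in at least 1 contrast between sites and, to reach 12, for those with the highest mean level. Of the other lists, up to 3 genes with the smallest adjusted p were named per contrast. Positions come from GENCODE M21 (GRCm38) and promoters from RefSeq. Proteins were not used here.

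On simulated data with 200 genes changed by 2-fold in brain, edgeR recovered 54% in each brain contrast with 6.09% and 5.26% false calls among 13680 genes. With no gene changed, the simulated liver against subcutaneous contrast had 657 genes with an unadjusted p under 0.05 and 0 calls. The class test recovered 93.5% of 200 genes changed by 1.5-fold, with 4.59% false calls among 11845 genes. The alternatives were DESeq2 1.42.0, RLE or no factors, other filters and gates, thinned counts, equal cell numbers, G2/M-low cells, the replicate number as a block, only the compared sites, and leaving out each library. The class difference between sites, its alternatives, class size factors, shares without thinning and chromosome neighbours were added after seeing the data.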

Additional observations from a re-analysis of the deposited data

Results flagged for a closer look

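The difference between G2/M-high and G2/M-low cells was not equal at the 3 sites by a test of that difference (edgeR, adjusted p under 0.05), and the genes concerned are given here as log2 differences of the class effect. All of them are negative, which means that the gene was lower in G2/M-high cells of the first-named site, relative to its own G2/M-low cells, than in the second. The counts of genes changed when single libraries were left out.

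Between brain and subcutaneous tumours the largest differences were those of Cdc6 (-0.72), Dtl (-0.57) and Clspn (-0.46). The loader and single-strand binding genes followed with Rfc4 (-0.36), Rpa2 (-0.33), Rfc5 (-0.28), Rfc3 (-0.26) and Rfc2 (-0.19). Cdt1 (-0.33), Fen1 (-0.32), Uhrf1 (-0.29), Rrm1 (-0.28), Slbp (-0.27), Prim1 (-0.27), Lig1 (-0.25) and Pcna (-0.21) lay in between, and of the helicase genes Mcm3 (-0.25), Mcm6 (-0.22) and Mcm5 (-0.20) differed.

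Between brain and liver the helicase genes Mcm3 (-0.30), Mcm2 (-0.28) and Mcm6 (-0.25) differed, together with Uhrf1 (-0.30), Lig1 (-0.26), Rfc4 (-0.24) and Rpa2 (-0.21). With a limit of 12 UMIs for the high class, 2 genes differed in this contrast, 1 in each direction, and without the first or the second brain library the number was 1 or 0. Between liver and subcutaneous tumours Cdc6 (-0.71), Dtl (-0.49), Clspn (-0.44), Ccne1 (-0.44), Ccne2 (-0.32), Cdt1 (-0.26), Fen1 (-0.25) and Slbp (-0.21) differed.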

How the results depend on the processing

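No called value changed direction in any alternative that was run. For brain against liver the 3 genes called became 6 with total UMIs alone as scaling, which moved the median of all genes by 0.11 on the log2 scale (and by -0.11 for liver against subcutaneous), and ranged from 1 to 8 when 1 library was left out. For brain against subcutaneous the 2 genes became 4 with DESeq2, 5 in G2/M-low cells and 1 with only the 2 sites in the fit, with 0 to 3 when 1 library was left out. For liver against subcutaneous the 2 genes became 1 with RLE factors, with thinned counts and with equal cell numbers, and 0 with a gate at 0.5%, in G2/M-low cells and with only the 2 sites in the fit, with 0 to 3 when 1 library was left out. The cause of these changes was not tested. For most alternatives here and below, the share of all tested genes called in the same fit is not given. The changed counts are therefore not read as particular to the list. The counts between G2/M classes ranged from 25 to 31 without 1 library. The class difference between sites ranged from 0 to 11 genes for brain against liver, 6 to 23 for brain against subcutaneous and 3 to 14 for liver against subcutaneous, and with a high class at 12 UMIs the first was 2 genes, 1 in each direction.

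Deviations from the site means correlated from -0.24 to 0.24 between libraries with the same number, and from -0.25 to 0.28 between those with different numbers. With 2 or 3 libraries per site these deviations are tied to each other. Whether the numbers pair the libraries therefore cannot be decided from them. With the replicate block the counts were 6, 1 and 1 for brain against liver, brain against subcutaneous and liver against subcutaneous. The block lost 2 calls by edgeR, that of Clspn, brain against subcutaneous (adjusted p = 0.0557), and that of Ccne2, liver against subcutaneous (adjusted p = 0.0619). The log2 fold change of Clspn was 0.72 with the block and 0.68 without it.

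The share of tumour cells with member UMIs moved with its limits. At 5 UMIs it was 94.1%, 89.2% and 90.2% in brain, liver and subcutaneous tumours, at 15 UMIs 49.8%, 31.7% and 38.8%, thinned to 5000 UMIs 92.5%, 85.2% and 87%, and without thinning 92.7%, 92.9% and 93.2%. Without 1 library it was 71.2% to 76.7% in brain, 53.2% to 63.3% in liver and 62.5% to 66.7% in subcutaneous tumours. Depth limits rare genes most: UMIs of Mcm10 were found in 1.89% to 2.69% of thinned tumour cells, and with 2 brain libraries the spread between allografts limits all contrasts.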
